A study of Mus musculus with 12 samples.

Results

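The 34 genes described here encode the subunits of the 26S proteasome and its assembly chaperones in cultured mouse adipocytes. They were taken by name: symbols made of Psm, then a, b, c or d, then digits, without the inducible subunits Psmb8, Psmb9 and Psmb10, and with at least 1 FPKM in at least 2 of 12 libraries. Of 24341 distinct symbols in the files, 36 had such a name and 34 passed. The other two are tissue isoforms, the testis gene Psma8, which reached 0.0796 FPKM at most, and the thymus gene Psmb11, which reached 0.0330 FPKM at most. By role the 34 comprised 7 genes of the alpha ring, 7 of the beta ring, 6 of the ATPase ring, 3 other genes of the base, 8 of the lid and 3 chaperones of base assembly.

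RNA sequencing was done on 6 groups of 2 libraries. In 4 groups the cells were C57BL/6 inguinal preadipocytes matured in culture: WT beige and KO-labelled beige with rosiglitazone, an agonist of the fat cell receptor PPARγ, and WT white and KO-labelled white without it, where KO stands for a knockout of the transcription factor ATF7. The last 2 groups were C3H10T1/2, 1 mouse mesenchymal cell line that can become fat, turned into beige adipocytes with rosiglitazone either as controls or with ATF7 overexpressed. How ATF7 was removed or overexpressed, the animals behind each preadipocyte culture and whether replicates were separate cultures are not stated in the labels. Every p-value therefore measures only the spread between these libraries, which may be technical.

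The proteasome breaks down proteins that carry ubiquitin chains. Its barrel is made of outer alpha rings, which gate the channel, and inner beta rings, which hold the cutting sites. A cap sits on the barrel: the ATPase ring of its base unfolds the substrate, other base subunits bind ubiquitin, and the lid removes the ubiquitin chain. In brown and beige fat, NFE2L1, a membrane-bound factor of the endoplasmic reticulum, is known to drive proteasome genes and to help sustain thermogenesis.

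Values were FPKM, in which fragments are divided by the length of the transcript and the size of the library. They do not tell how deeply a library was read. Libraries summed to 225536 to 272371 FPKM. The targeted gene Atf7 showed no fall with the KO label: its 8 primary values lay between 6.88 and 9.10 FPKM in all, with WT at 7.10 to 9.10 FPKM and KO-labelled at 6.88 to 7.94 FPKM. It stood at 8.52 and 9.09 FPKM in C3H10T1/2 controls and at 41.2 and 39.1 FPKM with overexpression. Directions for the KO-labelled libraries therefore rest on their labels, and 1 value for a whole gene cannot tell a deleted exon from a present one. All 8 adipocyte markers exceeded 1 FPKM in all groups, but they summed to 11202 to 12587 FPKM in primary beige, 3284 to 4889 FPKM in primary white and 12367 to 13470 FPKM in C3H10T1/2 libraries. The 6 beige or brown markers summed to 792 to 1061, 42.4 to 58.6 and 596 to 1071 FPKM in the same order. Few genes carried these sums. Fabp4 alone stood at 8602 to 9585, 1940 to 3055 and 8926 to 9779 FPKM. Pparg (47.0 and 45.1 against 45.8 and 45.0 FPKM) and Lpl (805 and 840 against 824 and 879 FPKM) overlapped between WT beige and WT white. Both were higher in beige in KO-labelled cultures. Ppargc1a stood at 6.07 to 9.54 FPKM in primary beige and 0.167 to 0.303 FPKM in C3H10T1/2, where Cox8b stood at 512 to 821 FPKM. The 12 macrophage markers summed to 30.4 to 40.7 FPKM in beige primary libraries, to 522 to 574 FPKM in WT white and to 745 to 800 FPKM in KO-labelled white. They summed to 1.68 to 2.32 FPKM in C3H10T1/2, where C1qa, C1qb and Itgam were at 0 in all 4 libraries. The 7 stromal progenitor markers moved alike, at 93.8 to 117 FPKM in beige and 447 to 651 FPKM in white primary libraries. In bulk samples, fewer cells of a type and less RNA per cell cannot be told apart.

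The proteasome genes took 0.362% to 0.508% of all FPKM in a library. Their summed level was 1137 and 1094 FPKM in WT beige, 1155 and 1351 FPKM in KO-labelled beige, 888 and 1078 FPKM in WT white, and 844 and 865 FPKM in KO-labelled white. In C3H10T1/2 it was 1288 and 1279 FPKM in controls and 1352 and 1240 FPKM with ATF7 overexpressed. The KO-labelled white libraries were the lowest of the 12 in summed level and in share, and the groups of WT beige and WT white did not overlap, at 1094 FPKM for the lower beige and 1078 FPKM for the higher white library. The level of the median member did overlap, at 24.04 and 24.3 FPKM in WT beige and 22.996 and 27.1 FPKM in WT white. Libraries of 1 group could differ as much as groups. In KO-labelled beige, 31 of 34 members were higher in replicate 2 than in replicate 1 (median difference 0.27 on the log2 scale, beside 0.10 over all genes). In WT white, 31 of 34 were likewise higher in replicate 2 (0.28, beside 0.02 over all genes). In the other groups between 10 and 20 of 34 were higher in replicate 2.

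**Figure D1:**
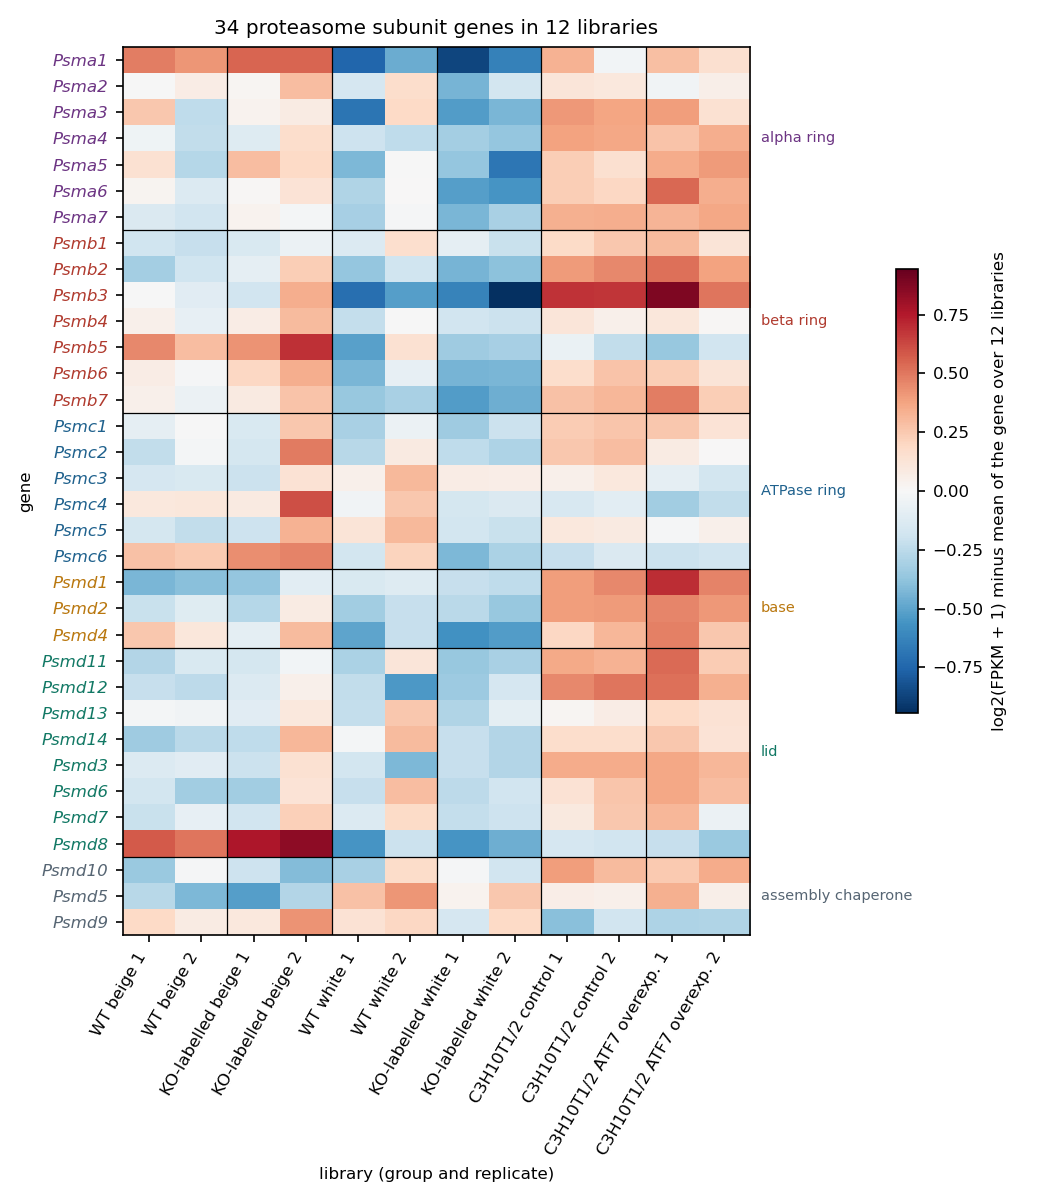
The 34 proteasome genes (rows, grouped by role) in 12 libraries (columns, 2 per group); colour is log2(FPKM + 1) minus the gene's mean over the 12 libraries. Psma1, Psmd8 and Psmb5 are red in the beige primary libraries and blue or pale in the white ones, Psmd5 the other way round, and most members are red in C3H10T1/2.

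Levels per length differed between the roles. In WT beige the group median was 39.7 FPKM for the alpha ring, 44.7 FPKM for the beta ring, 22.1 FPKM for the ATPase ring, 29.7 FPKM for the other base subunits, 20.2 FPKM for the lid and 5.25 FPKM for the assembly chaperones. In WT white the same medians were 39.9, 38.2, 23.3, 27.2, 22.4 and 5.82 FPKM. In C3H10T1/2 controls they were 53.4, 59.97, 24.4, 43.3, 28.0 and 7.96 FPKM. The medians of both barrel rings thus stood above those of the ATPase ring and lid in each of these 3 groups. Single genes did not all follow. The alpha gene Psma5, with means of 12.9, 11.5 and 15.4 FPKM, was below every ATPase and lid gene in the 3 groups. The lid gene Psmd8, at a mean of 66.7 FPKM in WT beige, was above most barrel genes there. Psma1 was the most abundant member in 8 of 12 libraries, and Psmb4 in the 4 white ones.

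The comparison of beige with white cultures asks what the proteasome genes did where rosiglitazone was present. In WT, 6 of 34 were higher in beige and 1 was lower (limma on log2(FPKM + 1), Benjamini-Hochberg adjusted p under 0.05), where 21.6% of all 11294 genes tested were called higher and 32.1% lower. The members' median log2 fold change was 0.06, beside −0.10 over all genes, and 20 of 34 values were above 0, beside 42% of all genes. This median turned to −0.06, with 13 of 34 above 0, without the first WT white library, and was 0.15, with 24 above 0, without the second. It was 0.03 and 0.04 without the first and second WT beige library. In KO-labelled cultures 16 of 34 were higher and 1 was lower, where 26.6% of all genes were called higher and 34.3% lower. Their median was 0.37, beside −0.06 over all genes, and 30 of 34 values were above 0, beside 45.9% of all genes. Without the second KO-labelled beige library the median was 0.19 and 12 were called higher, and without the first it was 0.52 and 22 were called higher. Without the first or second KO-labelled white library 10 and 11 were called higher. Scaling changed these counts. In WT they were 4 higher and 6 lower after quantile normalization. They were 8 and 1 when libraries were centred on their medians. They were 3 and 8 when small RNA and predicted genes were removed and the rest rescaled. After that rescaling 13420 genes passed the filter, and the pseudocount weighed differently. In KO-labelled cultures the counts were 12 and 2, 24 and 1, and 11 and 3. Values above 0 numbered 16, 24 and 10 of 34 in WT under these settings, and 27, 32 and 24 in KO-labelled cultures. In WT, 10 members were higher and 6 lower without overlap of libraries (29.4% and 17.6%), beside 31.3% and 46.2% of all genes. In KO-labelled cultures these were 23 and 2 members (67.6% and 5.88%), beside 36.2% and 44.7% of all genes.

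Of all genes called in WT, 40.2% were higher in beige. Quantile normalization made this 50.9%, centring on medians 51.4%, and removal of small RNA genes 26.7%. In KO-labelled cultures the figure was 43.7%, and 52.8%, 52.8% and 27.3% in the same order. These settings moved the median of all genes by 0.12, 0.11 and −0.20 in WT, and by 0.12, 0.11 and −0.29 in KO-labelled cultures. Relative to that median, the members' median stood at 0.16 in WT, and at −0.05, 0.16 and 0.19 under the settings in that order. In KO-labelled cultures it stood at 0.43, and at 0.11, 0.43 and 0.49. Centring on medians shifts all genes of a library alike, so 0.16 and 0.43 under it were fixed in advance. The summed adipocyte, beige or brown, macrophage and stromal markers, given above, differed between the same libraries, and their part in these results was not tested.

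**Figure D2:**
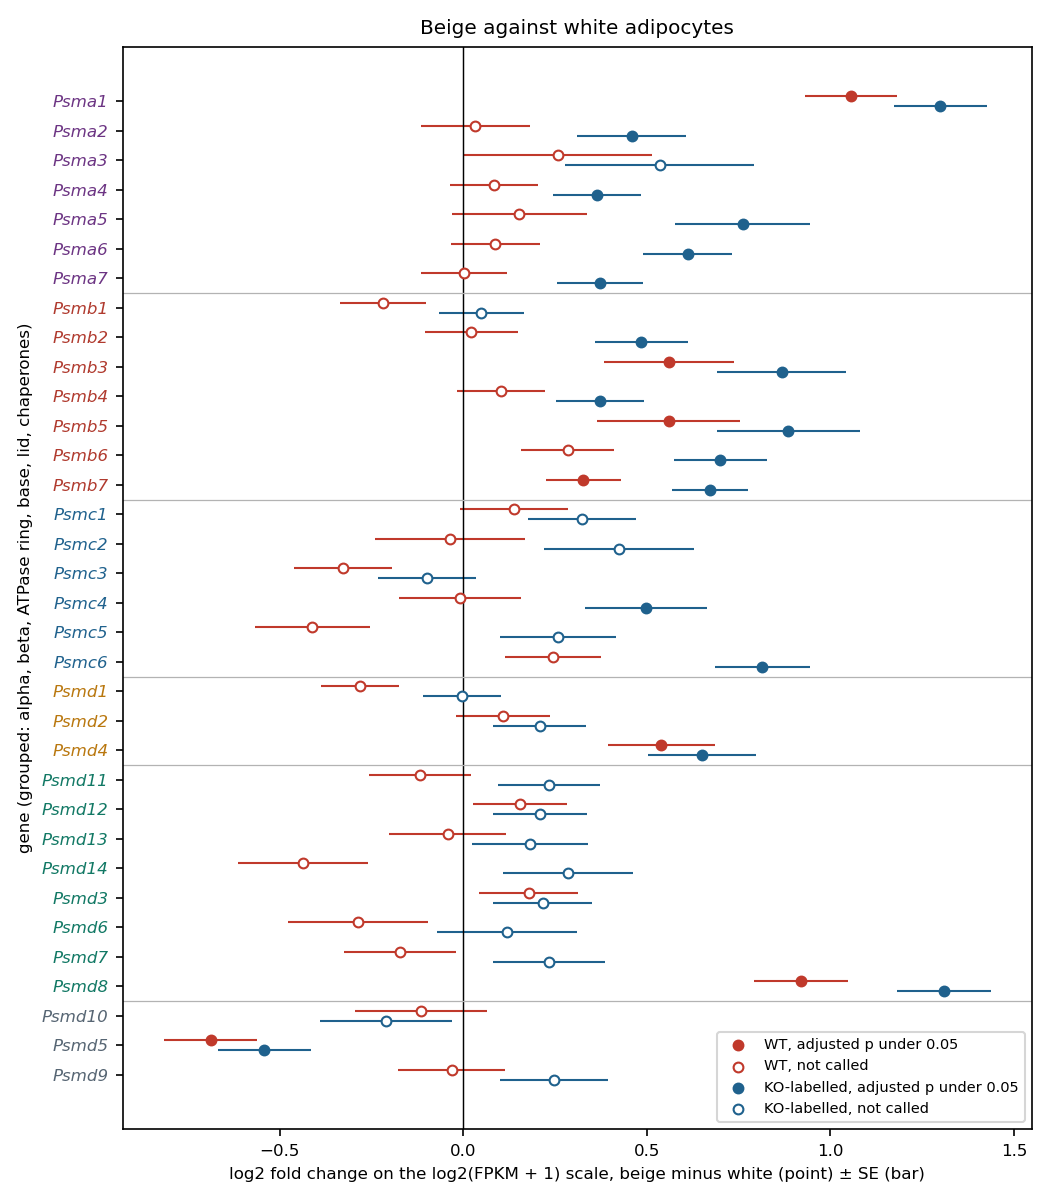
Log2 fold change of beige over white on the log2(FPKM + 1) scale (horizontal axis; point, with SE as bar) for the 34 proteasome genes by role, in WT (red) and KO-labelled (blue) cultures; filled points have an adjusted p under 0.05. Psma1 and Psmd8 lie farthest to the right in both, at 1.06 and 0.92 in WT and 1.30 and 1.31 in KO-labelled cultures, and Psmd5 is the only filled point left of 0, at −0.69 and −0.54.

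Among the alpha ring genes, 1 of 7 was higher in WT beige and 6 of 7 in KO-labelled beige, and 0 were lower. Psma1, whose product is 1 of the 7 distinct alpha subunits, had the largest rise in WT. It stood at 121 and 115 FPKM in WT beige, 127 and 127 FPKM in KO-labelled beige, 50.98 and 62.1 FPKM in WT white, and 46.9 and 55.2 FPKM in KO-labelled white. The lowest beige library, at 115 FPKM, was far above the highest white library, at 62.1 FPKM (1.06, SE 0.13, adjusted p = 0.000136 in WT; 1.30, SE 0.13, adjusted p = 2.91e-05 in KO-labelled cultures). Psma3, another alpha subunit, stood at 24.3 and 17.02 FPKM in WT beige, 20.7 and 21.4 FPKM in KO-labelled beige, 12.2 and 23.2 FPKM in WT white, and 13.7 and 14.8 FPKM in KO-labelled white. Its values overlapped, since the second WT white library was above the second WT beige library, and it was called in neither genotype (0.26, SE 0.26, adjusted p = 0.429 in WT; 0.54, SE 0.26, adjusted p = 0.102 in KO-labelled cultures). Psma7 stood at 40.3 and 39.1 FPKM in WT beige, 45.5 and 43.8 FPKM in KO-labelled beige, 35.6 and 44.2 FPKM in WT white, and 32.8 and 35.7 FPKM in KO-labelled white. WT beige and WT white overlapped, while both KO-labelled beige libraries were above both KO-labelled white ones (0.00, SE 0.12, adjusted p = 0.987 in WT; 0.37, SE 0.12, adjusted p = 0.0223 in KO-labelled cultures). Psma5 stood at 14.9 and 10.9 FPKM in WT beige, 16.5 and 15.3 FPKM in KO-labelled beige, 9.67 and 13.3 FPKM in WT white, and 10.1 and 7.94 FPKM in KO-labelled white, and was called in KO-labelled cultures alone (0.76, SE 0.18, adjusted p = 0.00625), though the difference between genotypes was not called. Psma6 stood at 65.8 and 58.9 FPKM in WT beige, 65.2 and 70.7 FPKM in KO-labelled beige, 52.9 and 64.8 FPKM in WT white, and 44.7 and 43.6 FPKM in KO-labelled white. Its beige level in KO-labelled cultures was 65.2 FPKM or more and its white level 44.7 FPKM or less (0.61, SE 0.12, adjusted p = 0.00216), and WT values overlapped. Psma2 and Psma4 were higher in KO-labelled beige with log2 fold changes of 0.46 and 0.36.

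The beta ring holds the 3 cutting subunits, Psmb5 with chymotrypsin-like, Psmb6 with caspase-like and Psmb7 with trypsin-like activity. Psmb5 stood at 52.3 and 46.7 FPKM in WT beige, 51.2 and 61.8 FPKM in KO-labelled beige, 26.3 and 41.9 FPKM in WT white, and 29.8 and 30.2 FPKM in KO-labelled white. All 4 beige libraries were above all 4 white ones, but the WT white libraries were wide apart (0.56, SE 0.19, adjusted p = 0.0374 in WT; 0.89, SE 0.19, adjusted p = 0.0038 in KO-labelled cultures). Without the first WT white library the WT difference was 0.23 and was not called. Psmb6 stood at 43.8 and 41.5 FPKM in WT beige, 47.8 and 53.02 FPKM in KO-labelled beige, 30.7 and 39.4 FPKM in WT white, and 30.5 and 30.7 FPKM in KO-labelled white. WT beige exceeded WT white by little in the nearest libraries, 41.5 against 39.4 FPKM, and the WT difference was not called (0.28, SE 0.13, adjusted p = 0.0884), while that in KO-labelled cultures was (0.70, SE 0.13, adjusted p = 0.00129). Psmb7 stood at 63.5 and 59.2 FPKM in WT beige, 65.2 and 74.4 FPKM in KO-labelled beige, 47.7 and 49.7 FPKM in WT white, and 42.3 and 44.3 FPKM in KO-labelled white. Beige and white did not overlap in either genotype (0.33, SE 0.10, adjusted p = 0.0253 in WT; 0.67, SE 0.10, adjusted p = 0.000478 in KO-labelled cultures). Of the subunits without a cutting site, Psmb3 stood at 33.2 and 30.9 FPKM in WT beige, 29.3 and 42.4 FPKM in KO-labelled beige, 19.97 and 22.9 FPKM in WT white, and 21.2 and 16.8 FPKM in KO-labelled white. Its beige values were all above its white values (0.56, SE 0.18, adjusted p = 0.0255 in WT; 0.87, SE 0.18, adjusted p = 0.00255 in KO-labelled cultures). Psmb2 stood at 35.4 and 39.1 FPKM in WT beige, 42.00 and 52.4 FPKM in KO-labelled beige, 34.4 and 38.9 FPKM in WT white, and 32.7 and 33.8 FPKM in KO-labelled white and was not called in WT (0.02, SE 0.13, adjusted p = 0.898), but was called in KO-labelled cultures (0.48, SE 0.13, adjusted p = 0.0092). Psmb4 was also higher in KO-labelled beige (0.37, SE 0.12, adjusted p = 0.0246), a difference that was −0.015 after quantile normalization. Psmb1 was called in neither genotype, at −0.22 in WT and 0.05 in KO-labelled cultures. In all, 3 of 7 beta genes were higher in WT beige and 6 of 7 in KO-labelled beige.

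**Figure D3:**
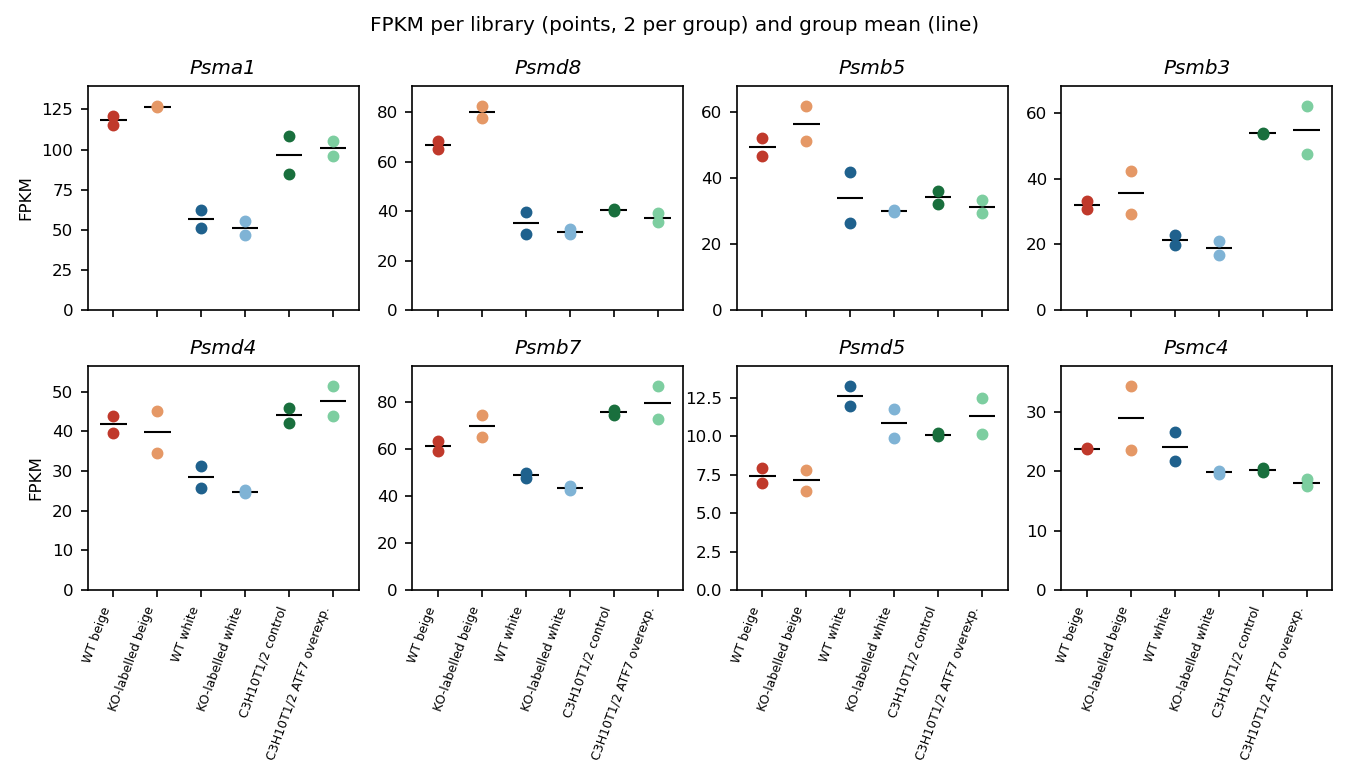
FPKM (vertical axis, from 0) of 8 proteasome genes in 6 groups; points are libraries, 2 per group, and lines are group means. Psma1, Psmd8, Psmb5, Psmb3, Psmd4 and Psmb7 are higher in the beige than in the white primary groups, Psmd5 is lower, and the 2 KO-labelled beige libraries of Psmc4, at 23.5 and 34.2 FPKM, are wide apart.

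Of the ATPase ring, 0 of 6 genes were called in WT and 2 of 6 were higher in KO-labelled beige. Psmc6, 1 of its ATPases, stood at 35.2 and 34.3 FPKM in WT beige, 39.3 and 40.2 FPKM in KO-labelled beige, 25.4 and 33.5 FPKM in WT white, and 21.2 and 23.2 FPKM in KO-labelled white. KO-labelled beige was 39.3 FPKM or more and KO-labelled white 23.2 FPKM or less (0.81, SE 0.13, adjusted p = 0.000616), and WT values were closer together (0.24, SE 0.13, adjusted p = 0.145). Psmc4 stood at 23.8 and 23.8 FPKM in WT beige, 23.5 and 34.2 FPKM in KO-labelled beige, 21.6 and 26.5 FPKM in WT white, and 19.5 and 20.1 FPKM in KO-labelled white. It was called in KO-labelled cultures (0.50, SE 0.17, adjusted p = 0.0289), but without the second KO-labelled beige library the difference was 0.24 and was not called. Psmc1, an ATPase whose tail helps to open the alpha gate, stood at 23.4 and 24.9 FPKM in WT beige, 22.5 and 29.98 FPKM in KO-labelled beige, 19.9 and 23.99 FPKM in WT white, and 19.5 and 21.6 FPKM in KO-labelled white. Its groups lay close together and it was called in neither genotype (0.14, SE 0.15, adjusted p = 0.46 in WT; 0.32, SE 0.15, adjusted p = 0.0856 in KO-labelled cultures). Psmc5 stood at 17.1 and 16.3 FPKM in WT beige, 16.7 and 24.4 FPKM in KO-labelled beige, 21.04 and 24.01 FPKM in WT white, and 16.95 and 16.5 FPKM in KO-labelled white. WT white was at or above 21.04 FPKM and WT beige at or below 17.1 FPKM, a difference just short of the threshold (−0.41, SE 0.16, adjusted p = 0.0548). Psmc3 stood at 19.8 and 20.02 FPKM in WT beige, 19.2 and 24.6 FPKM in KO-labelled beige, 22.95 and 27.7 FPKM in WT white, and 23.3 and 23.3 FPKM in KO-labelled white. It was lower in both WT beige than in both WT white libraries, without passing the test (−0.33, SE 0.13, adjusted p = 0.0673). Psmc2 stood at 18.5 and 21.6 FPKM in WT beige, 19.3 and 31.1 FPKM in KO-labelled beige, 18.1 and 23.2 FPKM in WT white, and 18.3 and 17.7 FPKM in KO-labelled white. The second KO-labelled beige library was the highest, and Psmc2 was called in neither genotype.

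Of the other base subunits, Psmd4, a ubiquitin receptor, was called in both genotypes. It stood at 43.98 and 39.7 FPKM in WT beige, 34.4 and 45.2 FPKM in KO-labelled beige, 25.7 and 31.4 FPKM in WT white, and 24.4 and 25.2 FPKM in KO-labelled white. No white library reached the lowest beige library of 34.4 FPKM (0.54, SE 0.15, adjusted p = 0.0133 in WT; 0.65, SE 0.15, adjusted p = 0.00442 in KO-labelled cultures). Psmd1 and Psmd2, the large scaffolds of the base that dock ubiquitin receptors and carriers, went with no call. Psmd1 stood at 18.7 and 19.2 FPKM in WT beige, 19.6 and 23.8 FPKM in KO-labelled beige, 23.04 and 23.4 FPKM in WT white, and 21.8 and 21.5 FPKM in KO-labelled white. WT beige was below WT white in all libraries, just short of the threshold (−0.28, SE 0.11, adjusted p = 0.0508), and KO-labelled libraries overlapped (−0.00, SE 0.11, adjusted p = 0.981). Psmd2 stood at 28.7 and 30.8 FPKM in WT beige, 27.5 and 35.3 FPKM in KO-labelled beige, 26.4 and 28.6 FPKM in WT white, and 27.9 and 25.9 FPKM in KO-labelled white. The lower WT beige library, at 28.7 FPKM, lay just above the higher WT white library, at 28.6 FPKM (0.11, SE 0.13, adjusted p = 0.499).

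In the lid, 1 of 8 genes was called, the same gene in both genotypes. Psmd8, a structural subunit of the lid, stood at 68.5 and 64.9 FPKM in WT beige, 77.8 and 82.4 FPKM in KO-labelled beige, 30.6 and 39.5 FPKM in WT white, and 30.6 and 32.9 FPKM in KO-labelled white. The lowest beige library, at 64.9 FPKM, was far above the highest white library, at 39.5 FPKM (0.92, SE 0.13, adjusted p = 0.000338 in WT; 1.31, SE 0.13, adjusted p = 2.98e-05 in KO-labelled cultures). Psmd14, the deubiquitinase that cuts off the ubiquitin chain, stood at 20.1 and 21.3 FPKM in WT beige, 21.6 and 32.1 FPKM in KO-labelled beige, 25.3 and 31.7 FPKM in WT white, and 21.9 and 20.96 FPKM in KO-labelled white. It was lower in WT beige than in WT white in every library without passing the test (−0.44, SE 0.18, adjusted p = 0.065), and KO-labelled beige was split, with 1 library beside the white ones and 1 above them (0.28, SE 0.18, adjusted p = 0.192). Psmd11, which helps to hold the cap to the barrel, stood at 19.6 and 21.6 FPKM in WT beige, 21.2 and 23.6 FPKM in KO-labelled beige, 19.3 and 26.1 FPKM in WT white, and 18.5 and 19.2 FPKM in KO-labelled white. Psmd12, a structural subunit of the lid, stood at 14.4 and 14.1 FPKM in WT beige, 15.4 and 17.5 FPKM in KO-labelled beige, 14.2 and 11.3 FPKM in WT white, and 13.1 and 15.03 FPKM in KO-labelled white. Neither was called in WT (−0.12, SE 0.14, adjusted p = 0.502 for Psmd11; 0.15, SE 0.13, adjusted p = 0.342 for Psmd12), where their groups overlapped. The lid subunits Psmd3, Psmd6, Psmd7 and Psmd13 had WT log2 fold changes of 0.18, −0.29, −0.17 and −0.04, and 0 of these 4 were called in either genotype.

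The chaperones of base assembly bind the ATPases before the cap is complete and leave the finished particle. Psmd5 stood at 7.93 and 6.96 FPKM in WT beige, 6.46 and 7.81 FPKM in KO-labelled beige, 11.95 and 13.2 FPKM in WT white, and 9.91 and 11.8 FPKM in KO-labelled white. It was the only member called lower in beige than in white, with the highest beige library, at 7.93 FPKM, below the lowest white library, at 9.91 FPKM (−0.69, SE 0.13, adjusted p = 0.00175 in WT; −0.54, SE 0.13, adjusted p = 0.00524 in KO-labelled cultures). Psmd9 stood at 4.49 and 4.08 FPKM in WT beige, 4.16 and 5.46 FPKM in KO-labelled beige, 4.29 and 4.51 FPKM in WT white, and 3.31 and 4.49 FPKM in KO-labelled white. Psmd10, also known as gankyrin, stood at 4.51 and 5.99 FPKM in WT beige, 5.15 and 4.30 FPKM in KO-labelled beige, 4.69 and 6.96 FPKM in WT white, and 6.01 and 5.22 FPKM in KO-labelled white. Both were low, overlapped between WT beige and WT white and were not called (−0.03, SE 0.15, adjusted p = 0.876 for Psmd9 and −0.12, SE 0.18, adjusted p = 0.614 for Psmd10, in WT). The calls of Psma1, Psmd8 and Psmd5 were kept in both genotypes under all 13 alternative settings of each comparison, with WT values from 0.73 to 1.20 for Psma1, 0.724 to 1.099 for Psmd8 and −0.91 to −0.58 for Psmd5. The other 4 WT calls were each lost in at least 2 settings, among them the leaving out of the first WT beige library and of the first WT white library, which brought the count of higher members to 2 each time. Without the second WT beige library the count was 3, and without the second WT white library it was 9. Of the 16 members called higher in KO-labelled beige, 9 kept the call under all 13 settings. The calls of Psma2, Psma4, Psma5, Psma7, Psmb2, Psmb4 and Psmc4 were each lost in 1 to 5 settings. Quantile normalization ended those of Psma2, Psma4, Psma7, Psmb2 and Psmb4, and the lowest values were 0.15 for Psma2, 0.14 for Psma4, 0.11 for Psma7 and 0.22 for Psmb2. Psma5 was not called without the second KO-labelled white library, and Psma2, Psma4, Psma7, Psmb2, Psmb4 and Psmc4 were not called without the first. Without the second, those of Psma4, Psma7, Psmb4 and Psmc4 were lost as well, and without the second KO-labelled beige library those of Psma2, Psma4, Psmb4 and Psmc4.

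A level set against the median member of its own library does not move when all values of the library are multiplied by the same factor. It can move under quantile normalization. On that scale Psma1 stood at 4.89 times the median member in WT beige, 4.71 times in KO-labelled beige, 2.25 times in WT white, 2.33 times in KO-labelled white and 3.15 times in C3H10T1/2 controls (group means). Psmd8 stood at 2.76, 2.96, 1.39, 1.45 and 1.31 times in the same order. Psmb5 stood at 2.05, 2.07, 1.34, 1.37 and 1.11 times. Psmd5 stood at 0.308, 0.261, 0.504, 0.495 and 0.328 times. These 4 genes were picked for their differences between beige and white primary cultures, so differing ratios there are no separate support. Replicates could be wide apart, at 5.51 and 3.91 times for Psma1 and 3.39 and 2.54 times for Psmd8 in KO-labelled beige. For Psma1, Psmd8 and Psmb5 the beige primary libraries had the highest ratios of all 6 groups.

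To show what lies before the start of some genes that moved, the 250 bases before the RefSeq start are given for Psma1, Psmd8, Psmb5 and Psmd5. Psmb6 and Psmc6, called in KO-labelled cultures, were added because they hold an antioxidant response element, the motif bound by NFE2L1 and NFE2L2. How often the shown genes hold that motif is therefore no result. Psmb3, which in WT moved as much as Psmb5 (0.56 each), is not shown and held no match to it. Sequences are from RefSeq, build GRCm38.p6, 5′ to 3′ on the strand of the gene. Capitals mark matches on either strand to TGACNNNGC, the antioxidant response element, or to TGACG, the core of the cAMP response element that factors of the ATF family bind. The former can contain the latter.
Psma1: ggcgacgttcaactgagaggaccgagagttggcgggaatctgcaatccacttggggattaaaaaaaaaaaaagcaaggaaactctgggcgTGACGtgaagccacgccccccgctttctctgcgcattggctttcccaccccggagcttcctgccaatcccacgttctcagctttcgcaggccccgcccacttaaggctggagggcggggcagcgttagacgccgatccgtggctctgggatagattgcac
Psmd8: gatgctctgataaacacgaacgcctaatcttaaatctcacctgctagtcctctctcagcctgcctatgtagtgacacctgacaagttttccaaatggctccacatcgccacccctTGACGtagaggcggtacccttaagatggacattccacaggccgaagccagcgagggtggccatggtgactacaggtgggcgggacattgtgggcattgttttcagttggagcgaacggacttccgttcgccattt
Psmb5: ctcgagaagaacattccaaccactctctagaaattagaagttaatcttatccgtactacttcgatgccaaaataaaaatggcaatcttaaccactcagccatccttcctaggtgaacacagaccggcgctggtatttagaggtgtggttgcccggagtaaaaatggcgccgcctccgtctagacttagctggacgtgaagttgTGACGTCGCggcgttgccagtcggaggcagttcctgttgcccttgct
Psmb6: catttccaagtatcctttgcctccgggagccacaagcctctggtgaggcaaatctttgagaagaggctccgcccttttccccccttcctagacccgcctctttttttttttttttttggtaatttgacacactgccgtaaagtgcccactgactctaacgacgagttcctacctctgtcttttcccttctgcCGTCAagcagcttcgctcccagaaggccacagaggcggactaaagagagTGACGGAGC
Psmc6: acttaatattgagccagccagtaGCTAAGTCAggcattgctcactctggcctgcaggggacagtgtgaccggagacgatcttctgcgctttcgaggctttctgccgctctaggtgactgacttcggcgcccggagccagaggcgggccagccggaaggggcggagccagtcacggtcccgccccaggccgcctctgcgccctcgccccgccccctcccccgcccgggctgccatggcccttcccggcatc
Psmd5: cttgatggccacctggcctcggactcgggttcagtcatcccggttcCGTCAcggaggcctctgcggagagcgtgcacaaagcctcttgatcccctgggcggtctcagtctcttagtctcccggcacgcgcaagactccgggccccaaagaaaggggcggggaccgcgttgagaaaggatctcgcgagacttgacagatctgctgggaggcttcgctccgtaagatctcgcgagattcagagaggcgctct

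The first is chr7:114276117-114276366 on the minus strand, before Psma1 (gene at chr7:114264550-114276116). Psmd8 (chr7:29174187-29180673) has chr7:29180674-29180923 on the minus strand, and Psmb5 (chr14:54614120-54617995) has chr14:54617996-54618245 on the minus strand. Psmb6 (chr11:70525357-70527858) has chr11:70525107-70525356 on the plus strand, Psmc6 (chr14:45329824-45349071) has chr14:45329574-45329823 on the plus strand, and Psmd5 (chr2:34852089-34870962) has chr2:34870963-34871212 on the minus strand. The antioxidant response element was matched 47 bases before the start of Psmb5, 9 bases before that of Psmb6 and 227 bases before that of Psmc6. Of the 34 members, 28 had a promoter in the RefSeq table, and 5 of these 28 (17.9%) held TGACNNNGC, the other two being Psmd9 and Psmd12, against 10.2% of all 32851 promoters of the same length. TGACG was found in 11 of 28 (39.3%) against 17.8% of all. Of the 14 members with a promoter that were called higher in KO-labelled beige than white, 3 held TGACNNNGC and 8 held TGACG. The whole cAMP response element, TGACGTCA, was in 0 of 28 against 1.55% of all, and the PPAR response element, a repeat of AGGTCA after 1 base of any kind, in 0 of 28 against 0.03% of all. The GC box GGGCGG was in 17 of 28 (60.7%) against 32.7%, the ETS motif CCGGAAG in 9 (32.1%) against 6.91%, the nuclear respiratory factor motif (GCGC, any base, TGCGC) in 6 (21.4%) against 3.74%, and the CCAAT box in 10 (35.7%) against 33.9%. These are matches of letters on both strands. They describe the sequence and say nothing of binding. Promoters of Psmb1, Psmb2, Psmb7, Psmc3, Psmd3 and Psmd7 were not used here.

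Genes that act on the proteasome were read beside its subunits. Nfe2l1, the factor named above, stood at 88.0 and 92.0 FPKM in WT beige, 87.8 and 112 FPKM in KO-labelled beige, 45.9 and 43.3 FPKM in WT white, and 44.4 and 42.7 FPKM in KO-labelled white. All beige values were far above all white values (log2 fold change 0.998, SE 0.13, adjusted p = 0.000188 in WT; 1.17, SE 0.13, adjusted p = 5.37e-05 in KO-labelled cultures), and in WT the rise was called under each scaling, at 0.74 to 1.11. Ddi2, the protease that releases NFE2L1 from the membrane, rose in WT beige by 0.53 (SE 0.12, adjusted p = 0.00619). Nfe2l2, which encodes NRF2, rose by 0.39 (SE 0.09, adjusted p = 0.00715), which was 0.24 and not called without small RNA genes. In all 3 of 8 regulators were higher and 0 lower in WT, and 4 of 8 were higher in KO-labelled cultures. Of the 5 genes that assemble the barrel, Psmg4 was higher in WT beige (0.79, SE 0.13, adjusted p = 0.000822), at 0.02 (adjusted p = 0.895) in KO-labelled cultures. The difference between genotypes was not called for Psmg4 (interaction −0.76, SE 0.18, adjusted p = 0.15), and in white cultures it was higher in KO-labelled than in WT libraries (0.73, SE 0.13, adjusted p = 0.0327). Pomp was lower in WT beige (−0.38, SE 0.14, adjusted p = 0.0464), the latter not called after median centring at −0.27. In KO-labelled cultures 3 of these 5 were higher and 0 lower, led by Psmg2 at 0.70 and Psmg1 at 0.62.

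Of the activators, inhibitor and extra subunits, 2 of 6 were higher in WT beige, namely Psme3, the nuclear activator PA28γ (0.35, SE 0.10, adjusted p = 0.0206), and Ecm29, a proteasome adaptor (0.31, SE 0.10, adjusted p = 0.0253). Neither was called without small RNA genes. In KO-labelled cultures 4 of 6 were higher. Of 10 genes for ubiquitin shuttles and the p97 machine that extracts proteins from membranes, 2 were higher and 2 lower in WT and 6 higher and 1 lower in KO-labelled cultures, with Ubqln1 at 0.67 and 0.89 and Ubqln2 at −0.56 and −0.61. Of 9 genes of degradation from the endoplasmic reticulum, 7 were higher and 0 lower in WT (median 0.89), and 8 were higher and 1 lower in KO-labelled cultures (median 1.22), beside the shares of all genes given above. The largest rises were those of Derl3 (1.63), Derl1 (1.48) and Herpud1 (1.24) in WT, and of Herpud1 (1.78), Derl1 (1.65) and Derl3 (1.64) in KO-labelled cultures. Under the 3 scalings 6 or 7 of 9 were higher in WT, with 1 lower without small RNA genes.

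Other large complexes were counted for comparison. The CCT chaperonin, which folds actin and tubulin, had 0 of 8 called in WT and 6 of 8 higher in KO-labelled cultures, and 0 of 8 higher there after quantile normalization. The COP9 signalosome, a relative of the lid, had 2 of 9 higher in WT and 4 of 9 in KO-labelled cultures. The translation factor eIF3, the other relative, had 3 of 12 tested higher and 1 lower in both. Ribosomal protein genes had 2 of 74 higher and 12 lower in WT, and 3 higher and 9 lower in KO-labelled cultures, and copies and pseudogenes may share their reads. The subunits' 16 of 34 in KO-labelled cultures stood between these, and no difference between the lists was tested.

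Psmb9, Psmb10 and Psmb8 encode the inducible subunits that replace those of Psmb6, Psmb7 and Psmb5 in the immunoproteasome, which interferon calls up. As a share of the summed FPKM of each pair, Psmb9 made 11.6% and 15.6% in WT beige, 16.3% and 15.6% in KO-labelled beige, 13.2% and 13.2% in WT white, and 17.4% and 18.7% in KO-labelled white. Psmb10 made 12.05% and 15.8%, 15.8% and 14.1%, 14.6% and 18.5%, and 19.2% and 20.2% in the same order. Psmb8 made 10.4% and 15.7%, 19.8% and 14.1%, 16.9% and 20.5%, and 21.4% and 26.2%. The KO-labelled white libraries had the highest shares in each pair. WT beige and WT white overlapped for Psmb9 and Psmb10, and for Psmb8 both WT beige shares were below both WT white shares. No inducible gene was called in the WT beige and white comparison, though Psmb9 was after median centring (0.39, adjusted p = 0.0483). Psmb9 was higher in KO-labelled beige than white (0.45, SE 0.15, adjusted p = 0.0254), a difference of 0.27 that was not called without small RNA genes (adjusted p = 0.164). Psme2, of the activator PA28, was also higher there (1.14, SE 0.24, adjusted p = 0.00343) and stayed called under each scaling, at 0.94 to 1.25. In WT it was not called (0.51, SE 0.24, adjusted p = 0.11). Psme1, its partner, was called in neither genotype. In C3H10T1/2 the shares were 0.786% to 3.75% for Psmb9, 4.63% to 7.51% for Psmb10 and 1.71% to 2.10% for Psmb8, below every primary library. Against C3H10T1/2 controls, WT beige was higher in Psmb8 (2.34, SE 0.26, adjusted p = 2.94e-05), Psmb9 (2.33, SE 0.18, adjusted p = 2.64e-06) and Psmb10 (0.85, SE 0.17, adjusted p = 0.00167). Macrophage markers differed between the same libraries, as given above, and their part was not tested.

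**Figure D4:**
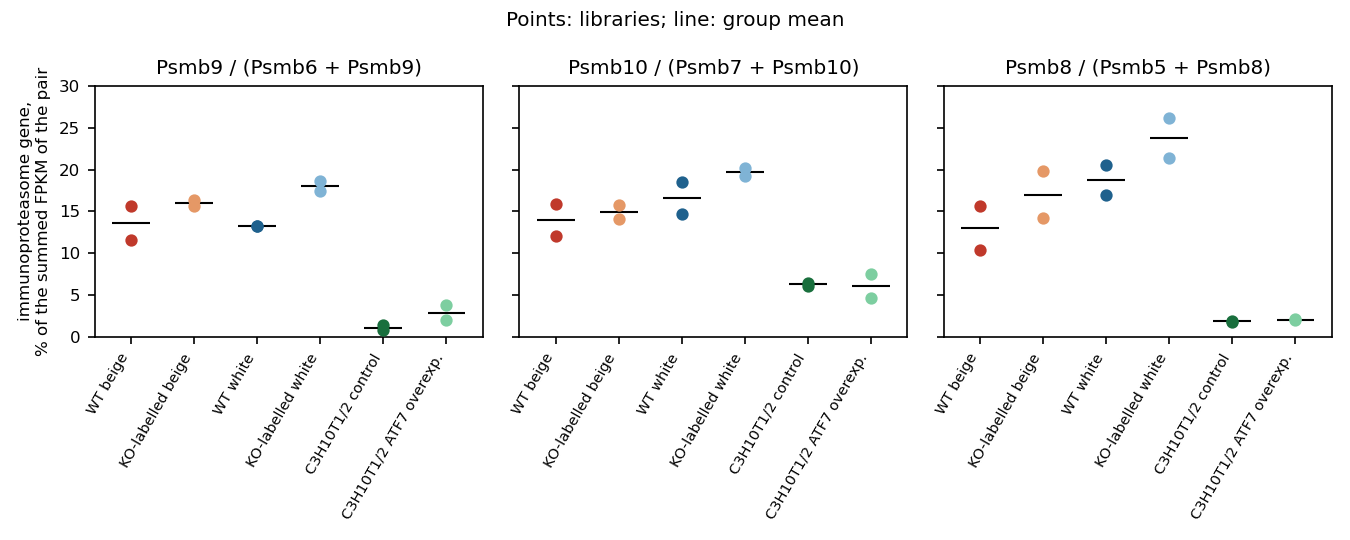
Share of the inducible gene in the summed FPKM of its pair (vertical axis, %), for Psmb9 with Psmb6, Psmb10 with Psmb7 and Psmb8 with Psmb5, in 6 groups; points are libraries and lines are group means. Primary libraries lie between 10.4% and 26.2% and C3H10T1/2 libraries at 7.51% or lower.

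The comparison of KO-labelled with WT cultures asks how these genes differed with the KO label, with no fall of Atf7 RNA shown. In beige cultures limma called 0 of 34 members in either direction, where 0.0531% of all genes were called higher and 0.0974% lower. At an unadjusted p under 0.05 there was 1 of 34 members, beside 1160 of 11294 genes. This member, Psmb2, stood at 35.4 and 39.1 FPKM in the WT libraries against 42.00 and 52.4 FPKM (0.33, SE 0.13, adjusted p = 0.435). The largest other differences were those of Psmd14 at 0.33 (SE 0.18, adjusted p = 0.557) and Psma5 at 0.30 (SE 0.18, adjusted p = 0.618), and at the other end Psmd10 at −0.12, Psmd4 at −0.08 and Psmd5 at −0.06. Of the 34 values 31 were above 0, beside 60.9% of all genes, and the median was 0.15 beside 0.04 over all genes. Without the second KO-labelled beige library, in which nearly all members were high, 19 of 34 were above 0 and the median was 0.02. Over the 4 libraries left out in turn, the median lay between 0.02 and 0.29.

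In white cultures limma called 0 of 34 members in either direction, where 1.27% of all genes were called higher and 0.62% lower. There were 3 of 34 members at an unadjusted p under 0.05, beside 2246 of 11294 genes. All 3 members were lower in KO-labelled libraries. Psma6 stood at 52.9 and 64.8 FPKM in the WT libraries against 44.7 and 43.6 FPKM (−0.40, SE 0.12, adjusted p = 0.124). Psmc6 stood at 25.4 and 33.5 FPKM against 21.2 and 23.2 FPKM (−0.38, SE 0.13, adjusted p = 0.162). Psmc5 stood at 21.04 and 24.01 FPKM against 16.95 and 16.5 FPKM (−0.40, SE 0.16, adjusted p = 0.205). None of the 3 overlapped between genotypes, and none passed the threshold. Without overlap, 14 of 34 members were lower (41.2%) and 0 higher, beside 21.2% and 32.1% of all genes. Psmd14 differed by −0.39 (SE 0.18, adjusted p = 0.269). Only Psmd12, at 0.14, and Psmd3, at 0.05, were above 0, beside 55.6% of all genes. The median was −0.17 beside 0.03 over all genes. Without the second WT white library 10 of 34 were above 0 and the median was −0.05. Without the first WT white library the median was −0.32 and 1 member was called lower. Macrophage markers were higher in the KO-labelled white libraries, as given above, and their part was not tested. Of all genes called, 67.1% were higher in KO-labelled white. A pseudocount of 0.1 made this 53.7%, quantile normalization 50.4%, centring on medians 52.8% and removal of small RNA genes 49%. Without the first or second KO-labelled white library it was 32% and 30.4%, of 25 and 23 calls. The count of members called stayed at 0 under each of these 6 settings.

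The interaction term tests whether the beige to white difference depends on the genotype label. Limma called 0 of 34 members in either direction, where 0.106% of all genes were called higher and 0.186% lower. At an unadjusted p under 0.05, beside 1900 of 11294 genes, there were 8 of 34 members. These were Psmd14 (0.72, SE 0.25, adjusted p = 0.22), Psmc5 (0.67, SE 0.22, adjusted p = 0.213), Psma5 (0.61), Psmc6 (0.57), Psma6 (0.52), Psmb2 (0.46), Psmb6 (0.42) and Psmb7 (0.34). The larger number of calls in KO-labelled than in WT cultures was therefore not shown to be a difference between genotypes. Of 34 values 33 were above 0, beside 51.3% of all genes, Psmd10 being the exception at −0.09. The median was 0.32 beside 0.01 over all genes. The medians with each of the 8 libraries left out ran from 0.20 to 0.49, lowest without the second KO-labelled beige library and highest without the first WT white library. These are the libraries in the 2 groups whose replicates differed most.

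Overexpression of ATF7 in C3H10T1/2 left the proteasome genes without a call. Limma called 0 of 34 in either direction, where 0.431% of 9981 genes were called higher and 1.06% lower. The median was −0.01 beside −0.02 over all genes, and 16 of 34 values were above 0, where 44.3% of all genes were. After quantile normalization, median centring and removal of small RNA genes the count was 20, 19 and 20. With 1 library left out, the median ran from −0.04 to 0.03 and 12 to 22 values were above 0. At an unadjusted p under 0.05 there were 4 of 34 members, beside 1715 of 9981 genes. Psma6 stood at 76.2 and 74.2 FPKM in controls and 94.6 and 81.98 FPKM with overexpression (0.23, SE 0.08, adjusted p = 0.25). Psma5 stood at 15.8 and 14.9 FPKM in controls and 17.3 and 17.9 FPKM with overexpression (0.18, SE 0.07, adjusted p = 0.246). These 2 alpha genes were higher in both overexpressing libraries than in both controls, as were 17.6% of members and 20.3% of all genes. Psmc2 stood at 26.2 and 26.97 FPKM in controls and 23.1 and 21.9 FPKM with overexpression (−0.23, SE 0.07, adjusted p = 0.155). Psmc3 stood at 22.99 and 23.9 FPKM in controls and 20.9 and 19.6 FPKM with overexpression (−0.20, SE 0.07, adjusted p = 0.204). All 6 ATPase genes had values below 0 in this fit, with Psmc4 at −0.16 (SE 0.07, adjusted p = 0.32) and Psmc6 at only −0.01 (SE 0.06, adjusted p = 0.947). All 3 other base genes had values above 0, with Psmd1 at 0.16 (SE 0.09, adjusted p = 0.433). No difference between roles was tested. The values of the members ran from −0.23 to 0.23.

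**Figure D5:**
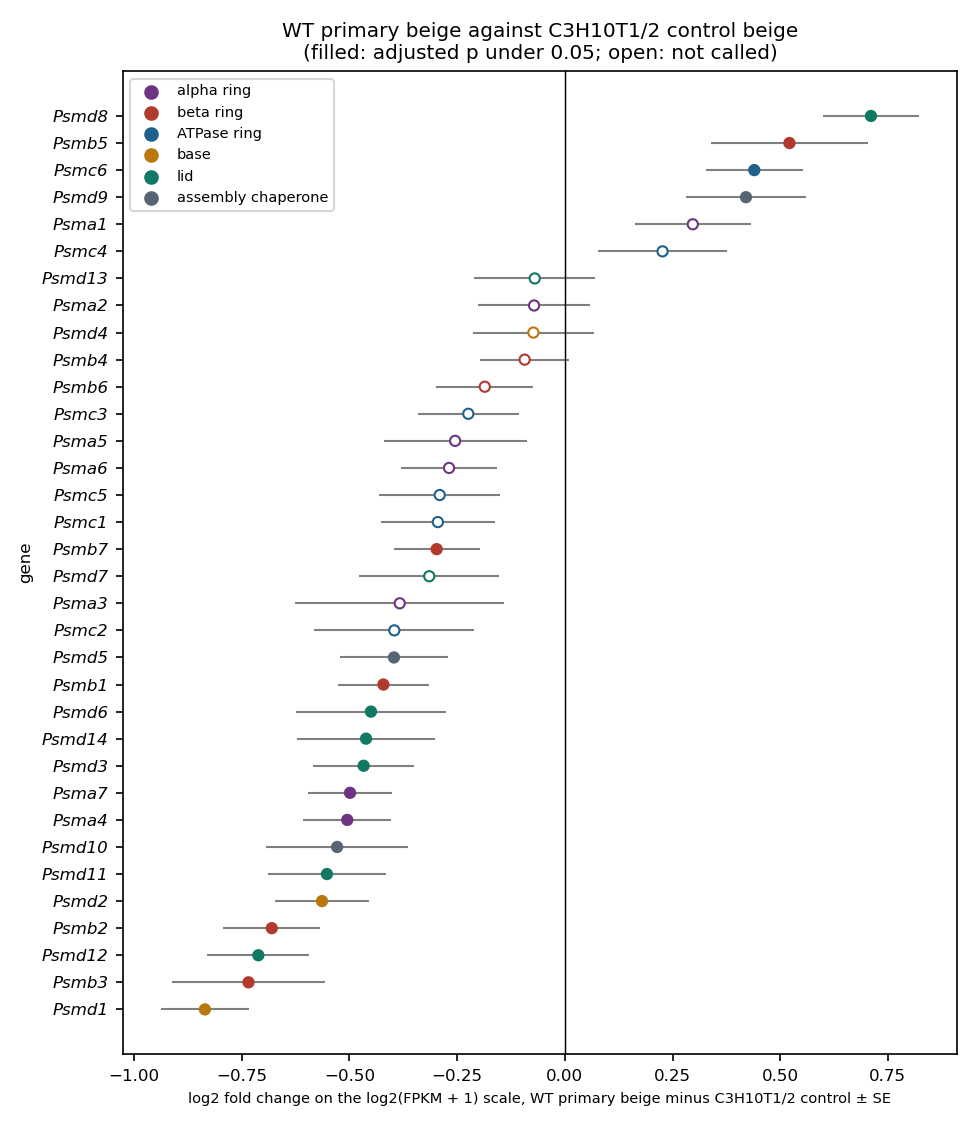
Log2 fold change of WT primary beige over C3H10T1/2 control beige on the log2(FPKM + 1) scale (horizontal axis; point, with SE as bar) for the 34 proteasome genes in order of size; filled points have an adjusted p under 0.05. Psmd1 is lowest at −0.84 and Psmd8 highest at 0.71, and 15 of the filled points lie left of 0.

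The beige adipocytes of both sources were set side by side, where cell source, strain and culture cannot be told apart. Of 34 members, 4 were higher and 15 lower in WT primary beige than in C3H10T1/2 control beige, where 25.3% of 11601 genes were called higher and 31.1% lower. The median was −0.31 beside −0.06 over all genes, and the count of lower members was 15 under each of the 3 scalings. Psmd1 stood at 18.7 and 19.2 FPKM in primary beige and at 33.9 and 35.2 FPKM in controls and 42.1 and 35.6 FPKM with overexpression in the line. Both primary values were below both control values (−0.84, SE 0.10, adjusted p = 6.41e-05). Without overlap, 27 of 34 members were lower (79.4%) and 6 higher (17.6%), beside 45.3% and 36.5% of all genes. Psmb3 stood at 33.2 and 30.9 FPKM in primary beige and at 54.1 and 53.8 FPKM in controls and 62.1 and 47.6 FPKM with overexpression (−0.73, SE 0.18, adjusted p = 0.00546). Psmd12 stood at 14.4 and 14.1 FPKM in primary beige and at 23.5 and 24.3 FPKM in controls and 24.6 and 21.5 FPKM with overexpression (−0.71, SE 0.12, adjusted p = 0.000525). By role, 2 of 7 alpha genes, 4 of 7 beta genes, 0 of 6 ATPase genes, 2 of 3 other base genes, 5 of 8 lid genes and 2 of 3 chaperones were lower, and no difference between roles was tested. The lower calls of Psmb7, Psmd5, Psmd6, Psmd10 and Psmd14 were each lost in at least 2 of 13 settings, and the other 10 were kept in all of them. Psmd2 fell by 0.56, Psmd11 by 0.55 and Psmd3 by 0.47 on the log2 scale. 

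In the other direction, Psmd8 stood at 68.5 and 64.9 FPKM in primary beige and at 40.8 and 39.99 FPKM in controls and 39.1 and 35.4 FPKM with overexpression in the line (0.71, SE 0.11, adjusted p = 0.000365). Psmc6 stood at 35.2 and 34.3 FPKM in primary beige and at 24.7 and 26.1 FPKM in controls and 24.9 and 25.4 FPKM with overexpression (0.44, SE 0.11, adjusted p = 0.00717). Psmb5 stood at 52.3 and 46.7 FPKM in primary beige and at 36.2 and 32.2 FPKM in controls and 29.3 and 33.3 FPKM with overexpression (0.52, SE 0.18, adjusted p = 0.032). Psmd8 and Psmb5 were thus higher in WT primary beige than in WT white and than in C3H10T1/2 control beige, comparisons that share the WT beige libraries. Psma1 did not pass the test between the sources, at 121 and 115 FPKM against 108 and 84.9 FPKM in controls and 105 and 95.95 FPKM with overexpression (0.30, SE 0.13, adjusted p = 0.0851). The chaperone genes split, with Psmd9 higher in primary beige (0.42, SE 0.14, adjusted p = 0.0255) and Psmd5 and Psmd10 lower (−0.40 and −0.53). In the line, Psmd9 stood at 2.67 and 3.25 FPKM in controls and 2.94 and 2.96 FPKM with overexpression. Psmd5 stood there at 10.2 and 10.02 FPKM in controls and 12.5 and 10.1 FPKM with overexpression. Psmd10 stood at 8.25 and 7.67 FPKM in controls and 7.37 and 7.96 FPKM with overexpression. None of the 3 separated control from overexpression. Psmb5 was not called when either WT beige library or either control library was left out, and then 2 or 3 members were higher and 10 or 11 lower.

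Other named members lay close together in the 4 C3H10T1/2 libraries. Psmb6 stood at 46.8 and 50.5 FPKM in controls and 49.02 and 45.4 FPKM with overexpression. Psmb7 stood at 74.6 and 76.6 FPKM in controls and 86.5 and 72.5 FPKM with overexpression. Psma7 stood at 56.5 and 56.6 FPKM in controls and 55.8 and 57.5 FPKM with overexpression. These 3 barrel genes overlapped between control and overexpression. Psma3 stood at 27.2 and 26.5 FPKM in controls and 26.9 and 22.5 FPKM with overexpression. Psmb2 stood at 59.1 and 61.3 FPKM in controls and 64.3 and 58.3 FPKM with overexpression. Psmc1 stood at 29.7 and 30.1 FPKM in controls and 29.9 and 27.4 FPKM with overexpression. These 3 overlapped as well. Psmc4 stood at 19.8 and 20.5 FPKM in controls and 17.4 and 18.6 FPKM with overexpression. Psmc5 stood at 20.7 and 20.5 FPKM in controls and 19.2 and 19.98 FPKM with overexpression. Psmd2 stood at 44.3 and 44.5 FPKM in controls and 46.3 and 44.8 FPKM with overexpression. Psmc4 and Psmc5 were lower, and Psmd2 higher, in both overexpressing libraries than in both controls, without a call. Without overlap, 6 of 34 members were higher (17.6%) and 7 lower (20.6%), beside 20.3% and 28.8% of all genes. Psmd4 stood at 42.2 and 45.8 FPKM in controls and 51.3 and 43.8 FPKM with overexpression. Psmd11 stood at 31.05 and 30.3 FPKM in controls and 35.1 and 28.5 FPKM with overexpression. Psmd14 stood at 28.8 and 28.9 FPKM in controls and 30.8 and 28.2 FPKM with overexpression. These 3 again overlapped.

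The 34 genes lie on 15 chromosomes, 6 of them on chromosome 11. For 6 members another protein-coding gene starts head to head within 1000 bases: Psma2 with Mrpl32, Psma7 with Ss18l1, Psmb1 with Tbp, Psmc2 with Dnajc2, Psmc5 with Ftsj3 and Psmd10 with Atg4a, at 32 to 179 bases. For 8 members a protein-coding gene overlaps. The labels do not say whether the counting used strand, so reads of such pairs may not be told apart. Psma2 overlaps AW209491 (2.40 to 4.14 FPKM) and Psmd1 overlaps Gm21972 (no value listed) on the same strand, where strand cannot separate reads. Psmd13 overlaps Sirt3, a mitochondrial deacetylase on the opposite strand, which stood at 9.63 to 11.69 FPKM in the primary beige libraries and was listed at 0 in 3 of 4 white libraries and at 3.33 FPKM in the other. A listed 0 may be a failed estimate. Psmc3 overlaps Slc39a13, a zinc transporter at 4.46 to 5.52 FPKM in primary beige and 8.67 to 11.3 FPKM in white. Psmd5 overlaps Cutal, which was at 0.0303 FPKM or less in the 8 primary libraries. The genes Psma1, Psmd8, Psmb5 and Psmb3 had no such overlap.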

How the data were processed

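Total RNA of 12 libraries of cultured mouse adipocytes was read, 2 in each of 6 groups formed from the titles. Ribosomal RNA was depleted and directional libraries were sequenced from both ends on a NextSeq500, per the labels' protocols. The deposited FPKM values, 1 per gene, were made by the authors, with mm10 (GRCm38) named in the submitters' processing notes. How reads were aligned and quantified, and with which annotation, is not given in the sources used here. Depth is unknown, so no counting interval is given, and the number of libraries limits the precision.

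Genes were tested with limma 3.58.1 (eBayes with trend, two-sided) in R 4.3.3 on log2(FPKM + 1), a scale that understates the change of low genes, for entries that reached 1 FPKM in 2 or more of the fitted libraries. Benjamini-Hochberg adjustment ran over all genes of a fit and calls were made under 0.05. The 8 primary libraries were fitted together (11294 genes, 4 residual degrees of freedom), the 4 C3H10T1/2 libraries on their own (9981 genes, 2 degrees) and all 12 for the comparison between sources (11601 genes, 6 degrees). Scripts were tested on simulated data. The members and lists were chosen with earlier results of these data known, and members' counts are read only beside the share called over all genes. Every member could be named. Library values were given for fixed subunits and, in each comparison, for the 3 largest rises and falls. Of other lists, up to 3 members with the lowest p and fixed ones could be named. The deposited starts were counted from 0, so 1 was added. Overlaps and neighbours were read from GENCODE vM21 and promoters, 250 bases before the start, from RefSeq on GRCm38.p6. Ecm29 is listed under AI314180, and Psme2 shares reads with the near-identical Psme2b. Alternatives were a pseudocount of 0.1, no filter, a filter at 5 FPKM, quantile normalization, median centring, removal of small RNA and predicted genes with the rest rescaled to a common sum, another set of libraries in the fit, no variance trend, a replicate block and each library left out.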

Additional observations from a re-analysis of the deposited data

How the results depend on the processing

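Counts of called members were recomputed under 13 alternatives for each comparison of 2 groups, and with 8 libraries left out in turn for the interaction. For WT beige against white, 1 member was lower in the reported fit, against 2 with a pseudocount of 0.1, 3 with a filter at 5 FPKM, 6 after quantile normalization, 8 without small RNA genes (where 3 and not 6 were higher), 5 with all 12 libraries in the fit and 4 with the replicate block. Psmc5 and Psmd14 were among the members added. With 1 library left out, 2 to 9 members were higher and 1 to 5 lower. For KO-labelled beige against white, 2 were lower after quantile normalization and 3 without small RNA genes, and 10 to 22 were higher with 1 library left out, 10 of them without the first KO-labelled white library. For KO-labelled against WT white, 0 or 1 was lower with 1 library left out. Between sources, 2 or 3 were higher with 1 library left out, and 22 were lower when only the 4 libraries compared were fitted. In all other settings the counts were within 1.5 times of the main ones, and the 3 remaining comparisons stayed at 0 calls throughout.

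Single members were followed where called or among the 3 largest rises and falls of a comparison. Among these, directions that reversed belonged to members without a call, apart from Psmb4 in KO-labelled beige against white, at −0.015 after quantile normalization. There Psmc3 was 0.012 after median centring and −0.27 to 0.073 with 1 library left out. In the interaction, Psmd3 was −0.044 after quantile normalization and −0.027 without small RNA genes, and Psmd12 was −0.036 and −0.0084. With 1 library left out, the interaction ran from −0.14 to 0.21 for Psmd3, −0.10 to 0.21 for Psmd12 and −0.34 to 0.15 for Psmd10. In beige, KO-labelled against WT ran from −0.18 to 0.064 for Psmd5, −0.29 to 0.049 for Psmd10 and −0.27 to 0.11 for Psmd4. In white it ran from −0.019 to 0.29 for Psmd12, −0.075 to 0.17 for Psmd3 and −0.27 to 0.22 for Psmd10. The causes of these changes were not tested. The labels do not say whether replicate numbers pair the libraries. Over 11601 genes the deviations of same-numbered libraries correlated at −0.13 to 0.12. WT with KO-labelled libraries stood at 0.11 in beige and 0.12 in white, and such low values do not exclude pairing. The replicate block is given here alone. It moved no count of called members other than the lower ones in WT beige by more than 1.5 times. Over all genes, with left-out libraries included, higher and lower calls ranged widely around those reported where these were few. For KO-labelled against WT white, 143 and 70 became 7 to 450 and 16 to 192, and in beige 6 and 11 became 3 to 11 and 2 to 17. For the interaction 12 and 21 became 5 to 38 and 6 to 78, and for overexpression 43 and 106 became 2 to 69 and 15 to 129. Over all members, values above 0 numbered 10 to 24 of 34 in WT beige against white and 12 to 22 for overexpression.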
